A study of Homo sapiens with 6 samples.

Results

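Ion channel genes were read out from the transcriptome of SW480 cells, colorectal adenocarcinoma cells kept as an established human line, grown on a soft or a stiff matrix. The members were all rows whose gene symbol begins with PIEZO, KCN, SCN and a digit, SCNN, CACN, CLCN, CLIC, TRPC, TRPM, TRPV, TMC and a digit, ANO and a digit, LRRC8, P2RX, ORAI or STIM. This choice of symbols gave 55 of the 8529 genes in the table. Wild-type cells of this 1 line were plated on hydrogels of 2 kPa or 25 kPa and kept for 72 h, and RNA was sequenced from 3 libraries at each stiffness. The 2 kPa group was the soft matrix and the 25 kPa group the stiff one, with no other treatment and no uncoated control. Levels are given as FPKM, fragments per kilobase of transcript, scaled to the library's mapped fragments. The unit is per length, but the transcript that each symbol stands for is not given in the sources used here, so an order of levels between genes is an order of the listed values. The labels state a triplicate but not whether the wells were separate cultures, so p-values measure only the spread between these libraries.

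Ion channels are membrane proteins that let selected ions pass down their gradients. Some open when the membrane is stretched or deformed, of which PIEZO1, a large trimeric channel that admits calcium, is the best known in epithelial cells. Others sense voltage, ligands, cell swelling or the emptying of calcium stores. In colonic epithelium, potassium channels, the sodium channel ENaC and chloride channels carry the absorption and secretion of salt and water, and store-operated calcium entry couples receptors to calcium signals. The question addressed here was which of these genes had measurable RNA in SW480 cells and whether their RNA differed between the soft and the stiff matrix.

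The summed FPKM of the 6 libraries ranged from 201030 to 263028, and Pearson correlations across genes between libraries of a group, on the log2(FPKM + 1) scale, ranged from 0.974 to 0.988. The FPKM carry no read numbers, and library depth is therefore unknown. Of 15 colon epithelial markers 9 were in the table, with KRT18 at 2992 ± 97.5 FPKM and EPCAM at 74.2 ± 11.4 FPKM on 2 kPa (SD, n = 3), while KRT20 averaged 0.0567 FPKM. No value in the table was 0, and the lowest was 0.01, so that the table lists genes with a value in every library. A low value is not proof of low RNA, since genes used by every cell were also low here (named after their values were seen): GAPDH ranged from 0.32 to 3.35 FPKM, VDAC1 from 0.18 to 2.15 FPKM and CANX from 3.45 to 5.01 FPKM. On the first principal component of all genes, which held 33.8% of the variance, 2 kPa replicate 2 lay with 25 kPa replicates 1 and 3, and 25 kPa replicate 2 lay with 2 kPa replicates 1 and 3. The second component, with 27.2% of the variance, separated the stiffness levels.

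Of the 55 channel genes, 24 (43.6%) had a mean FPKM of at least 1 over the 6 libraries, against 68.1% of all genes in the table. The other 31 lay near zero, from 0.04 FPKM for KCNG3, a silent voltage-gated potassium channel subunit, to 0.993 FPKM for KCNK13, a two-pore-domain potassium channel. Over the whole rule, 217 protein-coding symbols of the GENCODE v29 annotation begin with these letters, and the 55 genes of the table are the ones analysed here. Chloride channels of the CLCN family were covered most fully among the larger families, with 8 of 9 genes. The coverage was 3 of 3 ORAI genes, 2 of 3 symbols beginning with STIM, 1 of 2 PIEZO genes, 3 of 6 TRPV genes and 2 of 5 LRRC8 genes. No TMC, TRPC or TRPM gene was in the table (0 of 8 protein-coding symbols beginning with each of these prefixes). From a list of 17 genes linked to mechanical stimuli, 5 could be measured, namely PIEZO1, KCNK1, ANO1, STIM1 and ORAI1. PIEZO2, TRPV4, TRPV2, TRPC1, TRPC6, TRPM4, TRPM7, KCNK2, KCNK4, KCNK10, KCNMA1 and LRRC8A were not analysed here.

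The order of levels was led by CLIC1, chloride intracellular channel 1, a small protein with a soluble and a membrane form. CLIC1 was at 507, 430 and 552 FPKM in 2 kPa replicates 1, 2 and 3, and at 400, 489 and 391 FPKM in 25 kPa replicates 1, 2 and 3. Each of its 6 values lay above every value of any other channel gene, and the values of the soft and the stiff group overlapped. CLIC4, its relative, followed, with a range from 25.4 to 39.8 FPKM over the 6 libraries. CLIC1 and CLIC4 together made up 79.9% of the summed FPKM of the channel genes. Next came ANO1, CLCN7, PIEZO1, KCNJ5, STIM1 and ORAI3, with means over the 6 libraries from 15.04 FPKM for ANO1 to 9.94 FPKM for ORAI3. The remaining 16 genes at or above 1 FPKM ranged from 4.50 FPKM for SCNN1A to 1.05 FPKM for CACNB3. Of the 23 pairs of neighbours in this order, 21 overlapped in their libraries, and only CLIC1 over CLIC4 and CLIC4 over ANO1 were separated in all 6 libraries. The plot of FPKM by gene and library shows this order.

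**Figure D1:**
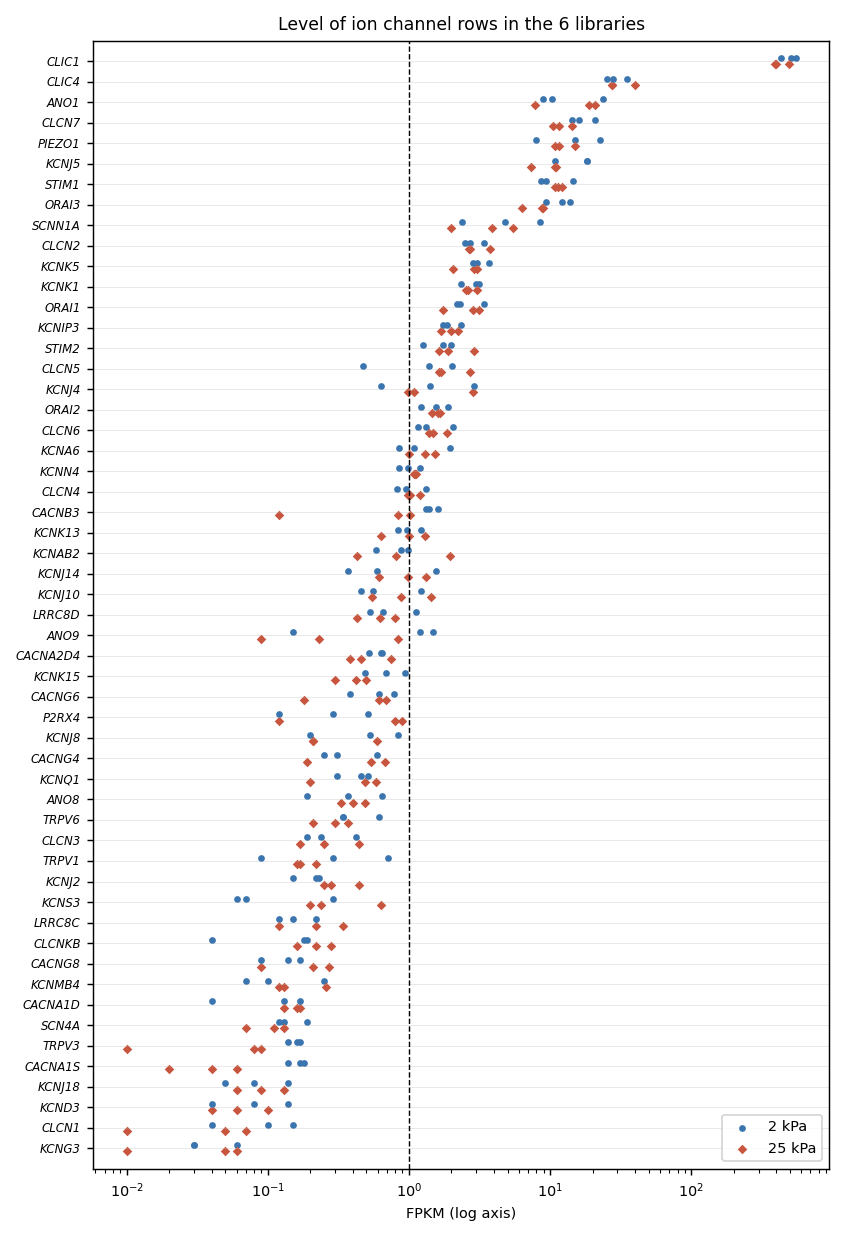
FPKM on a log axis for 54 channel genes, ordered by mean. Each point is 1 library (circles 2 kPa, diamonds 25 kPa) and the dashed line marks 1 FPKM. CLIC1 stands apart at 391 to 552 FPKM, 23 of the genes drawn have a mean at or above the line, and the libraries of the soft and stiff groups overlap for 48 of the 54.

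The genes nearest to the level of 1 FPKM are given without a test. Just above it, KCNN4, the calcium-activated potassium channel of intermediate conductance, averaged 1.06 FPKM. CLCN4, an endosomal chloride and proton exchanger, averaged 1.05 FPKM, and so did CACNB3, a regulatory beta subunit of voltage-gated calcium channels. Just below it were KCNK13 at 0.993 FPKM, KCNAB2, a beta subunit of voltage-gated potassium channels, at 0.938 FPKM, and KCNJ14, an inward rectifier potassium channel, at 0.908 FPKM. Their libraries lay on both sides of the line. CLCN4 was at 0.96, 1.32 and 0.82 FPKM on 2 kPa and 0.99, 1.01 and 1.2 FPKM on 25 kPa. KCNK13 was at 0.97, 1.22 and 0.84 FPKM on 2 kPa and 1.3, 0.63 and 1 FPKM on 25 kPa. In both, the groups overlapped. KCNAB2 was at 0.58, 0.88 and 0.98 FPKM on 2 kPa and 1.95, 0.81 and 0.43 FPKM on 25 kPa. KCNJ14 was at 0.59, 1.56 and 0.37 FPKM on 2 kPa and 1.33, 0.61 and 0.99 FPKM on 25 kPa. These wider ranges overlapped as well. With a level of 0.5 FPKM 33 genes would be kept, and with 2 FPKM 14 genes.

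For the comparison of stiffness, fold changes are differences of mean log2(FPKM + 1), 25 kPa minus 2 kPa, and p-values came from limma fitted over all 8529 genes with Benjamini-Hochberg adjustment. On this scale the change of genes near or below 1 FPKM is understated. No channel gene passed an adjusted p under 0.05 (0 of 55), where 10 of all 8529 genes passed (0.117%). The smallest adjusted p among the channels in limma, Benjamini-Hochberg, was 0.400, for KCNJ5. At an unadjusted limma p under 0.05 there were 5 channel genes (9.09%), against a background of 10.2% of all genes. The share of channel genes was thus near that of the table.

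All 5 were lower on the stiff matrix, namely KCNJ5, CACNA1S, ORAI3, CLCN7 and CACNB3, whereas the background held 6.96% of genes higher and 3.19% lower. That split of all genes depended on the scaling, since 68.6% of their calls were higher with the FPKM as deposited, 51.1% with quantile normalisation, 49.9% with centring on the median and 42.7% with FPKM rescaled to the same sum in each library. Among channel genes with a mean of at least 1 FPKM the count was 4 of 24 (16.7%), beside 12% of all genes at that level, and among those near zero it was 1 of 31 (3.23%), beside 6.14%. The count of 5 changed when single libraries were left out. It was 1 without 25 kPa replicate 1 (CACNA1S), 3 without 2 kPa replicate 1 (CLCN7, KCNJ5 and ORAI3) and 3 without 2 kPa replicate 3 (CLCN7, PIEZO1 and TRPV1). Without 2 kPa replicate 2 it was 5, of which CACNA1S and CACNB3 were shared with the 5 above and ANO9, KCNK15 and KCNS3 were not. The count over all 8529 genes moved as well, from 866 with all libraries. It was 622 without 25 kPa replicate 1, 767 without 2 kPa replicate 1, 765 without 2 kPa replicate 3 and 961 without 2 kPa replicate 2.

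Of all 8529 genes, 5081 had positive and 3448 negative fold changes with the FPKM as deposited. Among the channel genes, 28 had positive and 27 negative fold changes. Their median log2 fold change was 0.0017, beside 0.05 over all genes, and 0.0074 for those at or above 1 FPKM, beside 0.08 for all genes at that level. The sign of these medians depended on the scaling, since the median over all channel genes was −0.060 with FPKM rescaled to the same sum in each library, −0.051 with centring on the median and −0.027 with quantile normalisation. The 95% interval lay within 1 log2 unit of zero for 49 of the 55 genes and for 19 of the 24 at or above 1 FPKM. For the other 6 genes (CLCN5, ANO1, SCNN1A, CACNB3, KCNJ5 and ANO9) the data do not bound the difference to that range. Of the 31 genes near zero, 30 were among the 49, and the pseudocount of 1 keeps their intervals narrow. Their intervals therefore do not bound the ratio of their FPKM. CACNA1S, 1 of these 30, had a log2 fold change of −1.87 with a pseudocount of 0.01. The soft and stiff libraries did not overlap for 6 channel genes (10.9%), against 16% of all genes. These were CLCN7, ORAI3, CACNB3, TRPV3 and CACNA1S, lower on 25 kPa, where the background was 4.78%, and KCNJ2, higher on 25 kPa, where the background was 11.2%. The plot of fold changes gives the estimates with their intervals.

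**Figure D2:**
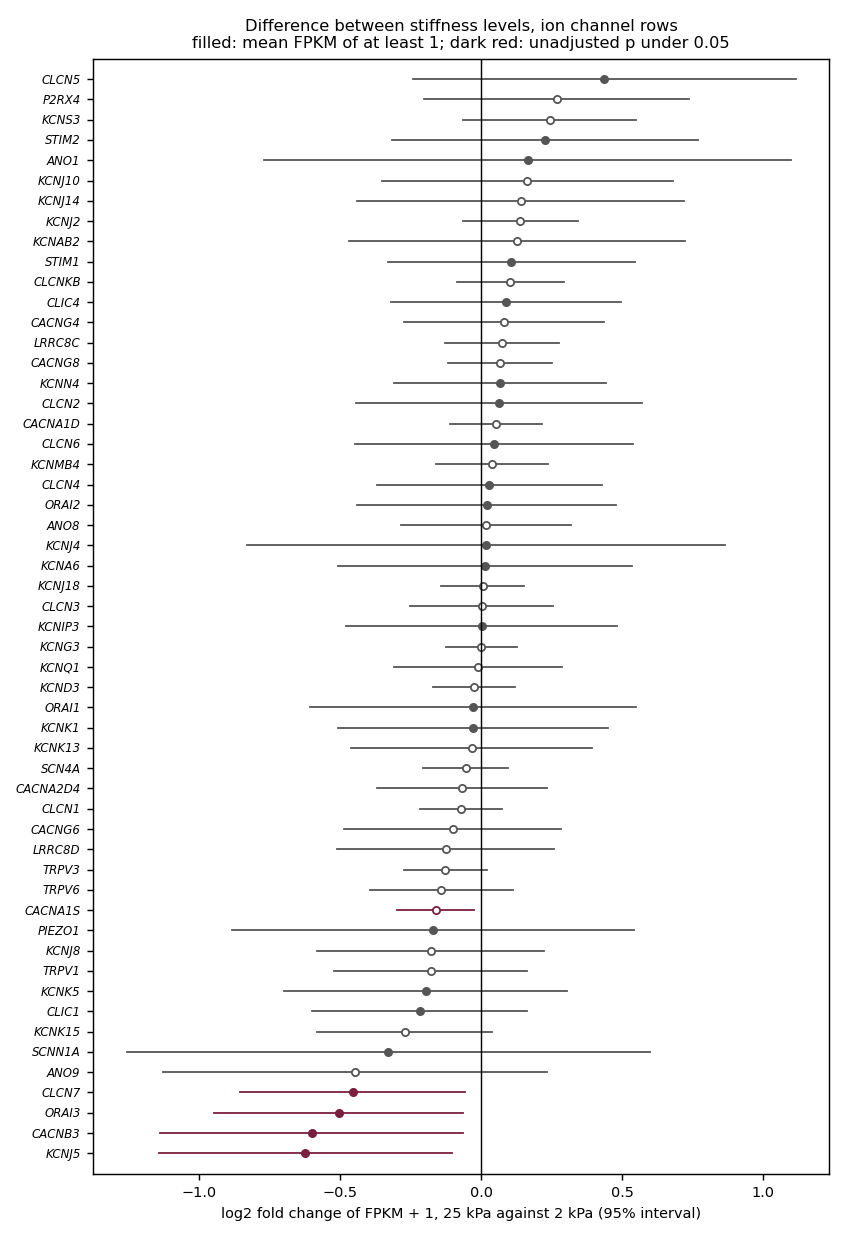
Log2 fold change of FPKM + 1, 25 kPa against 2 kPa, for 54 channel genes, ordered by size. Points are estimates of limma and lines their 95% intervals, filled points have a mean of at least 1 FPKM, and dark red marks an unadjusted p under 0.05. The values run from −0.62 for KCNJ5 to 0.44 for CLCN5, and 5 intervals, all on the lower side, leave out zero.

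PIEZO1, the mechanically gated cation channel, is annotated at chr16:88715338-88785220 on the reverse strand of GRCh38. PIEZO1 was at 14.9, 22.6 and 7.92 FPKM in 2 kPa replicates 1, 2 and 3. On 25 kPa it was at 14.9, 10.8 and 11.6 FPKM. The 25 kPa values all lay between the lowest and the highest 2 kPa value. The means were 15.2 ± 7.36 FPKM on 2 kPa and 12.4 ± 2.18 FPKM on 25 kPa (SD, n = 3). The log2 fold change was −0.17 (SE 0.31, 95% interval −0.88 to 0.54), with an adjusted p of 0.913 in limma. Its direction changed with the soft libraries included. Without 2 kPa replicate 2 the fold change was 0.16 (limma adjusted p = 0.839), and without 2 kPa replicate 3 it was −0.54 (limma adjusted p = 0.496). CTU2 overlaps PIEZO1 on the other strand, and the strandedness of the libraries is not given in the sources used here, so a part of either level may belong to the other gene.

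Other genes linked to mechanical stimuli were as undecided. KCNK1, a two-pore-domain potassium channel also called TWIK-1, was at 3.12, 3.01 and 2.35 FPKM on 2 kPa and 2.63, 2.55 and 3.04 FPKM on 25 kPa. These ranges overlapped, and the log2 fold change was −0.03 (95% interval −0.51 to 0.45, limma adjusted p = 0.982). KCNK5, its family member with the highest level, was at 3.04, 3.67 and 2.86 FPKM on 2 kPa and 3.05, 2.90 and 2.06 FPKM on 25 kPa. Its log2 fold change was −0.20 (95% interval −0.70 to 0.31, limma adjusted p = 0.845), and without 25 kPa replicate 3 it was −0.07. All 4 two-pore-domain genes in the table had negative fold changes, from −0.27 for KCNK15 to −0.03 for KCNK1, and none passed the adjusted test. Of all 8529 genes, 3448 had negative fold changes. The fold changes of KCNK1 and KCNK13 turned positive in some fits with 1 library left out, up to 0.027 and 0.098.

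Store-operated calcium entry is built from STIM proteins, which sense calcium in the endoplasmic reticulum, and ORAI proteins, which form the pore in the plasma membrane. All 5 genes of this group in the table were above 1 FPKM. STIM1 was at 9.37, 14.6 and 8.66 FPKM on 2 kPa and at 10.9, 11.4 and 12.2 FPKM on 25 kPa. The stiff group lay inside the range of the soft group, and the log2 fold change was 0.11 (95% interval −0.33 to 0.55, limma adjusted p = 0.909). ORAI3 was at 9.36, 13.9 and 12.2 FPKM on 2 kPa and at 6.30, 8.97 and 8.82 FPKM on 25 kPa. Every stiff library was below every soft one, with a narrow gap between 8.97 and 9.36 FPKM. The means of ORAI3 were 11.8 ± 2.31 and 8.03 ± 1.5 FPKM (SD, n = 3), the log2 fold change was −0.51 (SE 0.19, 95% interval −0.95 to −0.07), and the unadjusted limma p was 0.0290, with a limma adjusted p of 0.421. Leaving out 1 library at a time gave −0.65 to −0.36, and the unadjusted p was no longer under 0.05 without 2 kPa replicate 2, 2 kPa replicate 3 or 25 kPa replicate 1.

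ORAI3 is annotated at chr16:30949066-30956461 on the forward strand of GRCh38. The other pore genes of that group were lower in level than ORAI3. ORAI1 was at 3.39, 2.31 and 2.18 FPKM on 2 kPa and at 3.15, 1.74 and 2.83 FPKM on 25 kPa, with a log2 fold change of −0.03 (95% interval −0.61 to 0.55, limma adjusted p = 0.986). ORAI2 ranged from 1.21 to 1.89 FPKM and STIM2 from 1.25 to 2.87 FPKM over the 6 libraries. Their groups overlapped, with log2 fold changes of 0.02 and 0.23. Summed over the group, store-operated entry genes were at 28.5 ± 4.67 FPKM on 2 kPa and 25.8 ± 1.68 FPKM on 25 kPa (SD, n = 3).

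KCNJ5, also called GIRK4, is a G-protein-gated inward rectifier potassium channel and was the highest of the 20 genes whose symbol begins with KCN. KCNJ5 was at 10.9, 18.2 and 18.2 FPKM in 2 kPa replicates 1, 2 and 3 and at 7.38, 10.9 and 10.99 FPKM in 25 kPa replicates 1, 2 and 3. The groups met at their edges, where 2 kPa replicate 1 (10.88 FPKM) lay below 25 kPa replicate 3 (10.99 FPKM). The means were 15.7 ± 4.21 FPKM on 2 kPa and 9.75 ± 2.05 FPKM on 25 kPa (SD, n = 3). The log2 fold change was −0.62 (SE 0.23, 95% interval −1.14 to −0.11), and the unadjusted limma p was 0.0238, with a limma adjusted p of 0.400. Leave-one-out values ran from −0.85 to −0.45, and the unadjusted p was no longer under 0.05 without 2 kPa replicate 2, 2 kPa replicate 3 or 25 kPa replicate 1. KCNJ5 is annotated at chr11:128891356-128921035 on the forward strand of GRCh38, and C11orf45 overlaps it on the other strand.

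The other inward rectifiers were far lower than KCNJ5. KCNJ4 averaged 1.65 FPKM and had the widest spread of the 24 genes at or above 1 FPKM, with a within-group coefficient of variation of 67.2%. KCNJ2, named for its lack of overlap after the values were seen, was at 0.22, 0.23 and 0.15 FPKM on 2 kPa and 0.44, 0.28 and 0.25 FPKM on 25 kPa. The gap between the groups was as small as 0.23 against 0.25 FPKM, and the log2 fold change of 0.14 had an adjusted p of 0.657 in limma. KCNJ18 is nearly identical in sequence to KCNJ12, so its mean of 0.0917 FPKM is uncertain.

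Voltage-gated and auxiliary potassium channel genes were low. KCNA6, a Kv1 pore subunit and the highest of the 5 voltage-gated genes, was at 1.09, 1.94 and 0.85 FPKM on 2 kPa and 1.54, 1.3 and 1 FPKM on 25 kPa. KCNIP3, a calcium-binding partner of Kv4 channels, was at 1.85, 2.35 and 1.73 FPKM on 2 kPa and 1.70, 2.24 and 1.99 FPKM on 25 kPa. KCNN4 was at 0.99, 1.2 and 0.85 FPKM on 2 kPa and 1.12, 1.11 and 1.08 FPKM on 25 kPa. In each the groups overlapped, and the log2 fold changes were 0.01 for KCNA6, 0.0017 for KCNIP3 and 0.07 for KCNN4. KCNN4 had the smallest within-group coefficient of variation of the 24 genes, 11.9%, and its 95% interval was −0.31 to 0.44. KCNA6 lies within GALNT8 on the same strand, so reads of the pair could be split differently by another counting.

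Among the chloride channels, CLCN7, a lysosomal chloride and proton exchanger, was the highest of the CLCN family. CLCN7 was at 15.9, 20.9 and 14.3 FPKM on 2 kPa and at 10.5, 11.5 and 14.3 FPKM on 25 kPa. The lowest soft library and the highest stiff library were nearly equal (14.27 and 14.26 FPKM), so that the lack of overlap rested on 0.01 FPKM. The means were 17.0 ± 3.44 and 12.1 ± 1.97 FPKM (SD, n = 3). The log2 fold change was −0.46 (SE 0.18, 95% interval −0.86 to −0.06), and the unadjusted limma p was 0.0299, with a limma adjusted p of 0.424. Leave-one-out values ran from −0.57 to −0.31, and the unadjusted p was no longer under 0.05 without 2 kPa replicate 2, 25 kPa replicate 1 or 25 kPa replicate 2. CLCN7 is annotated at chr16:1444934-1475580 on the reverse strand of GRCh38. CLCN2, CLCN5 and CLCN6 averaged 2.97, 1.65 and 1.54 FPKM, and CLCN5 had the largest positive log2 fold change of all channel genes, 0.44 (95% interval −0.24 to 1.12).

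CLIC1 had a log2 fold change of −0.22 (SE 0.17, 95% interval −0.60 to 0.16, limma adjusted p = 0.735). With FPKM rescaled to the same sum in each library it was −0.34 (unadjusted limma p of 0.00789, limma adjusted p = 0.385), and with quantile normalisation −0.38 (unadjusted limma p of 0.00350, limma adjusted p = 0.226). Leaving out 1 library gave −0.32 to −0.14. CLIC1 is annotated at chr6:31730581-31739763 on the reverse strand of GRCh38, where DDAH2 overlaps it on the same strand. The summed FPKM of all channel genes was 658 ± 28.1 on 2 kPa and 573 ± 41.2 on 25 kPa (SD, n = 3), and without CLIC1 it was 162 ± 37.0 and 146 ± 15.5. With CLIC1 the groups did not overlap (634 to 689 against 546 to 620 FPKM), and without it they overlapped.

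ANO1, a calcium-activated chloride channel also called TMEM16A, was at 10.3, 23.6 and 8.87 FPKM on 2 kPa and at 18.9, 7.88 and 20.7 FPKM on 25 kPa. The 3 high libraries were 2 kPa replicate 2 and 25 kPa replicates 1 and 3, the same 3 libraries that lay on one side of the first principal component. The means were 14.2 ± 8.10 and 15.8 ± 6.96 FPKM (SD, n = 3), and the log2 fold change was 0.16 (SE 0.41, 95% interval −0.77 to 1.10, limma adjusted p = 0.937). Within the high set the single soft library was above both stiff ones, and within the low set the single stiff library was below both soft ones. The sets were read off these same values, so their order is no test of stiffness. With the side of that component as a block, an alternative chosen after seeing the data, the fold change of ANO1 was −0.24 (limma adjusted p = 0.391). ANO9, named after its values were seen, ran the other way, at 1.47, 0.15 and 1.19 FPKM on 2 kPa and 0.09, 0.83 and 0.23 FPKM on 25 kPa. Its log2 fold change was −0.45 (limma adjusted p = 0.682), with −0.79 without 2 kPa replicate 2 and −0.23 without 2 kPa replicate 1. ANO1 is annotated at chr11:70078302-70189528 on the forward strand of GRCh38.

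**Figure D3:**
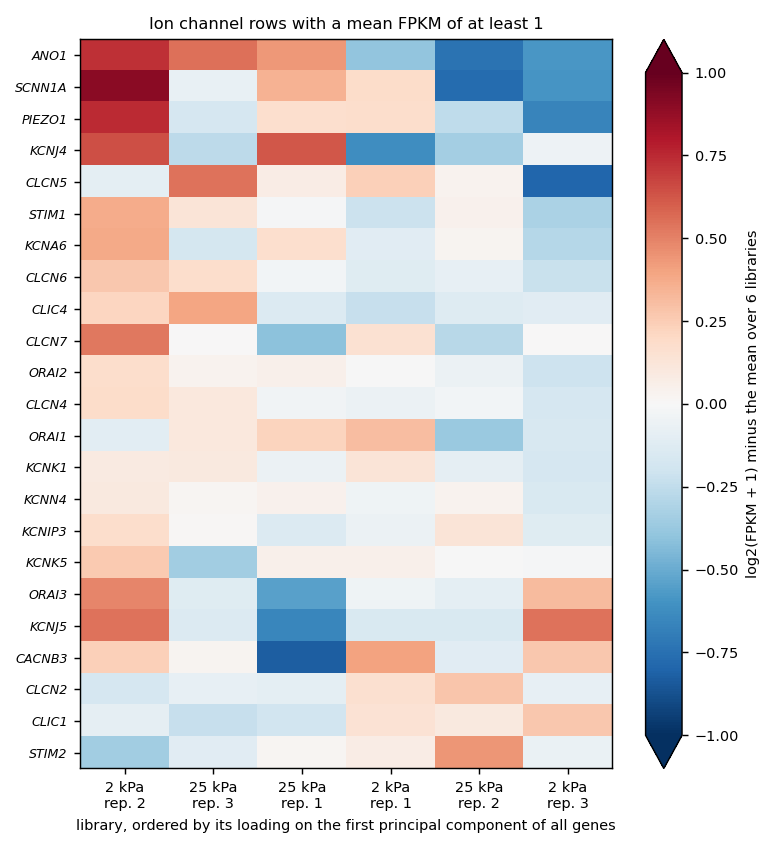
Deviation of log2(FPKM + 1) from the mean over 6 libraries for 23 channel genes at or above 1 FPKM (rows), with libraries (columns) ordered by their loading on the first principal component of all genes. Red is above and blue below the gene's mean. ANO1 is red in 2 kPa replicate 2 and 25 kPa replicates 1 and 3 and blue in the other libraries, and KCNJ5, ORAI3 and CACNB3 are bluest in 25 kPa replicate 1.

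SCNN1A, the alpha subunit of the epithelial sodium channel ENaC, was at 4.78, 8.52 and 2.39 FPKM on 2 kPa and at 5.49, 1.99 and 3.85 FPKM on 25 kPa. The groups overlapped, with means of 5.23 ± 3.09 and 3.78 ± 1.75 FPKM (SD, n = 3) and a log2 fold change of −0.33 (95% interval −1.26 to 0.60, limma adjusted p = 0.862). It was 1 of 4 symbols beginning with SCNN1, and the other ENaC subunits were not analysed here. LTBR overlaps SCNN1A on the other strand. SCN4A, the pore of the skeletal muscle sodium channel, averaged 0.125 FPKM.

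Of the 7 voltage-gated calcium channel genes, only CACNB3 reached a mean of 1 FPKM. CACNB3 was at 1.61, 1.33 and 1.38 FPKM on 2 kPa and at 0.12, 0.83 and 1.02 FPKM on 25 kPa. Every soft library was above every stiff one, and 25 kPa replicate 1 was far below the rest. The means were 1.44 ± 0.149 and 0.657 ± 0.474 FPKM (SD, n = 3), and the log2 fold change was −0.60 (SE 0.24, 95% interval −1.14 to −0.06, unadjusted limma p of 0.0324, limma adjusted p = 0.433). Without 25 kPa replicate 1 it was −0.34, with an unadjusted limma p of 0.158, and the unadjusted p was also no longer under 0.05 without 2 kPa replicate 1 or 2 kPa replicate 3. With a pseudocount of 0.1 the fold change was −1.33 (unadjusted limma p of 0.0523) and with 0.01 it was −1.58 (unadjusted limma p of 0.0590). CACNB3 is annotated at chr12:48813794-48828941 on the forward strand of GRCh38.

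CACNA1S, the pore subunit of the skeletal muscle calcium channel, was near zero in all libraries, at 0.18, 0.14 and 0.17 FPKM on 2 kPa and 0.06, 0.04 and 0.02 FPKM on 25 kPa. The groups did not overlap, and the means were 0.163 ± 0.0208 and 0.0400 ± 0.0200 FPKM (SD, n = 3). The log2 fold change was −0.16 with a pseudocount of 1 (unadjusted limma p of 0.0261, limma adjusted p = 0.404), −0.92 with 0.1 and −1.87 with 0.01, so its size depended on the pseudocount. Its unadjusted p stayed under 0.05 without 2 kPa replicate 2 or 25 kPa replicate 1 and not without any 1 of the other libraries, nor with eBayes without a trend (0.150) or median centring (0.0605). The 25 kPa values are a few steps of the last decimal written in the table. The plot of the selected channels shows these libraries.

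**Figure D4:**
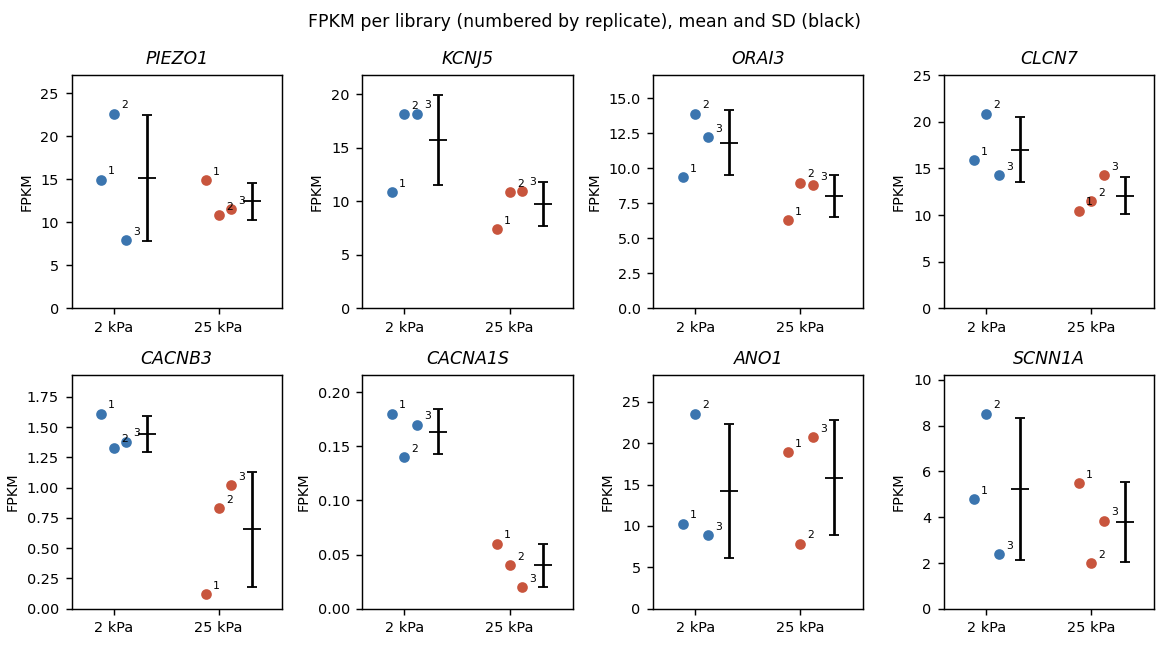
FPKM per library for 8 channel genes, on linear axes from 0 with a scale of their own. Blue points are 2 kPa and red points 25 kPa, numbered by replicate, and black bars give the mean and SD (n = 3). The libraries of ORAI3, CLCN7, CACNB3 and CACNA1S do not overlap between the groups, while those of PIEZO1, KCNJ5, ANO1 and SCNN1A do.

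The TRP, LRRC8 and P2RX genes in the table all had means under 1 FPKM. They were 3 of 22 TRP symbols, 2 of 5 LRRC8 symbols and 1 of 8 P2RX symbols, so these families were measured only in part. TRPV6, an epithelial calcium channel, was at 0.34, 0.34 and 0.61 FPKM on 2 kPa and 0.37, 0.21 and 0.30 FPKM on 25 kPa (log2 fold change −0.14, limma adjusted p = 0.742). TRPV1, the heat- and capsaicin-gated channel, ranged from 0.09 to 0.71 FPKM over the 6 libraries. TRPV3, named after its values were seen, was at 0.17, 0.14 and 0.16 FPKM on 2 kPa and 0.09, 0.08 and 0.01 FPKM on 25 kPa. All 3 TRPV genes had negative fold changes, as had 3448 of all 8529 genes. For TRPV3 the libraries did not overlap, with a log2 fold change of −0.13 and an adjusted p of 0.562 in limma.

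LRRC8 proteins form the volume-regulated anion channel. LRRC8D was at 1.13, 0.65 and 0.53 FPKM on 2 kPa and 0.79, 0.62 and 0.43 FPKM on 25 kPa, and its log2 fold change was −0.12 (limma adjusted p = 0.878). LRRC8C ranged from 0.12 to 0.34 FPKM. P2RX4, a cation channel opened by extracellular ATP, was at 0.29, 0.51 and 0.12 FPKM on 2 kPa and 0.89, 0.12 and 0.80 FPKM on 25 kPa. The lowest value occurred in both groups, and the log2 fold change of 0.27 had an adjusted p of 0.735 in limma. It was 0.51 without 25 kPa replicate 2 and 0.13 without 25 kPa replicate 1. None of these genes was separated by stiffness beyond the spread between libraries by the adjusted test.

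The spread between libraries of a group set what could be seen. For the 24 genes at or above 1 FPKM the within-group coefficient of variation had a median of 20.6%, close to the 19.4% of all genes at that level. It was 12.6% for CLIC1, 39.4% for PIEZO1, 50.2% for ANO1 and 55.8% for SCNN1A. In total 19 channel genes overlap another protein-coding gene in the annotation, and their levels carry that uncertainty.

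Promoter sequences are shown for PIEZO1 and for the 3 genes at or above 1 FPKM with an unadjusted p under 0.05 and a single listed start, KCNJ5, ORAI3 and CLCN7, so that the genes with lower values on the stiff matrix can be read beside the main mechanosensitive channel. They are the 250 bases before the start in RefSeq on GRCh38.p14, written 5′ to 3′ on the gene's strand, with capitals marking motif matches on either strand. The coordinates are chr16:88785221-88785470 (reverse strand) for PIEZO1, chr11:128891106-128891355 (forward) for KCNJ5, chr16:30948818-30949067 (forward) for ORAI3 and chr16:1475029-1475278 (reverse) for CLCN7.
PIEZO1: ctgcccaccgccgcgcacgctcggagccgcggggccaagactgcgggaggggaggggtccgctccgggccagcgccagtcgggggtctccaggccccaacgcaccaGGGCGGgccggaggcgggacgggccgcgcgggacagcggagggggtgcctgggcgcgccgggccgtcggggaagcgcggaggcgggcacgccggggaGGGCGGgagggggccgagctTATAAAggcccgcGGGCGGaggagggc
KCNJ5: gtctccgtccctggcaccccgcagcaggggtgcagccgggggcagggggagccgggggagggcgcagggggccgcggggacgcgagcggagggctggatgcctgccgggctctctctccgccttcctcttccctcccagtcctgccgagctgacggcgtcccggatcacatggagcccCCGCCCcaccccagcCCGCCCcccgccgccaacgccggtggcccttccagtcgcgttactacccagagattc
ORAI3: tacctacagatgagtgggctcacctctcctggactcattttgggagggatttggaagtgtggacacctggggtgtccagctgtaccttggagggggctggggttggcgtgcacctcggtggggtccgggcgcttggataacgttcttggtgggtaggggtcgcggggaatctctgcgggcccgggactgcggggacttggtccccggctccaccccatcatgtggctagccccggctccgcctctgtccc
CLCN7: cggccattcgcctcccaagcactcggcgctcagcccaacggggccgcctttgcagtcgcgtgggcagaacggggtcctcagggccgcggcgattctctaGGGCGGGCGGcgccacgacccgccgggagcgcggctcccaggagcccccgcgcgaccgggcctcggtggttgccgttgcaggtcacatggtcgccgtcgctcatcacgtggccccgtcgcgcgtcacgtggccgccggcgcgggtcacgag

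The motifs searched were the TEAD site GGAATG, the AP-1 site TGANTCA, paired heat shock units GAANNTTC, the NFAT site GGAAAA, the GC box GGGCGG, the CCAAT box and the TATA box TATAAA. In PIEZO1 there were 3 GC boxes and 1 TATA box, in KCNJ5 2 GC boxes on the reverse strand, in CLCN7 2 GC boxes that overlap each other, and in ORAI3 no match. Of all 35116 promoters of the same length, 42.6% held a GC box, 10.7% a TATA box, 11.9% a TEAD site, 6.57% an AP-1 site, 5.78% paired heat shock units, 21.2% an NFAT site and 32% the CCAAT box. Both strands were searched. Of 57 promoters of the 42 channel genes matched in RefSeq, 63.2% held a GC box and 10.5% a TATA box. The GC content of the 4 windows was 81.2% in PIEZO1, 75.2% in KCNJ5, 64.8% in ORAI3 and 75.2% in CLCN7, above the median of 58% over all promoters. These matches describe letters only, and promoter activity was not measured here.

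Genes that work with these channels were counted from lists written for this comparison, and 0 genes of any list passed the adjusted test in limma with Benjamini-Hochberg adjustment. The background for the counts at an unadjusted p under 0.05 is 10.2% of all genes, with 6.96% higher and 3.19% lower. Mechanosensing genes outside the rule had 10 of 21 in the table, with 0 at an unadjusted p under 0.05 and a median log2 fold change of 0.02. Calcium handling in the endoplasmic reticulum and mitochondria had 12 of 30 in the table, with 0 at that threshold and a median of 0.01. Channel ubiquitination and trafficking had 4 of 17, with 0 and a median of 0.06. These medians lay near the 0.05 of all genes. SARAF, which slows store-operated entry and was named after its values were seen, was at 50.4 ± 2.17 and 46.8 ± 1.41 FPKM (SD, n = 3). Its log2 fold change was −0.11 (unadjusted limma p of 0.316, limma adjusted p = 0.801).

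Calmodulin, calcineurin and NFAT genes had 9 of 23 in the table and a median log2 fold change of 0.23, with 1 of these 9 higher at an unadjusted p under 0.05. It was CALM3, a calmodulin gene, at 51.6 ± 3.27 and 62.6 ± 6.10 FPKM (SD, n = 3), and its log2 fold change was 0.27 (adjusted p = 0.472 in limma). Its unadjusted p was under 0.05 in 3 of 15 alternatives, and with FPKM rescaled to the same sum in each library its fold change was 0.15 (unadjusted limma p of 0.307). Pumps and chloride partners had 12 of 30 in the table and a median of −0.04, with 1 of these 12 higher. It was ATP1B1, the beta subunit of the sodium pump, at 9.95 ± 1.88 and 14.1 ± 2.86 FPKM (SD, n = 3), and its log2 fold change was 0.46 (adjusted p = 0.457 in limma). Its unadjusted p was under 0.05 in 9 of 15 alternatives and not, among others, with the same sum in each library (0.182), without 25 kPa replicate 1 (0.161) or without 2 kPa replicate 3 (0.140).

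Marker lists of other cell types were read beside these results. Summed FPKM of the colon epithelial markers ranged from 4484 to 4813 on 2 kPa and from 3692 to 4865 on 25 kPa. Most of that sum was KRT18 and KRT19, which averaged 2934 and 1347 FPKM over the 6 libraries. Of these markers 1 of 9 was lower at an unadjusted p under 0.05, CDX2 (limma adjusted p = 0.224). Fibroblast markers (4 of 10 in the table) summed to 0.84 to 2.22 FPKM and 2.93 to 3.20 FPKM, with ACTA2 higher at that threshold (limma adjusted p = 0.421). Most of the fibroblast sum was ACTA2, with means of 1.17 FPKM on 2 kPa and 2.35 FPKM on 25 kPa. LUM, PDGFRB and THY1 did not exceed 0.55 FPKM in any library. Leukocyte markers (3 of 10) summed to 3.98 to 5.47 FPKM and 2.39 to 3.59 FPKM, with CD14 lower (limma adjusted p = 0.491). Neuronal markers (4 of 10) summed to 8.30 to 9 and 8.73 to 9.21 FPKM, and of 8 endothelial markers 1 was in the table, EGFL7, at 23.9 to 29.9 and 22.1 to 29.3 FPKM. The unadjusted p was under 0.05 in 14 of 14 alternatives for CDX2, 9 of 15 for ACTA2 and 5 of 14 for CD14. The part of these differences in the channel results was not tested.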

How the data were processed

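SW480 cells on 2 kPa or 25 kPa hydrogels were sequenced, with 3 libraries per stiffness, grouped by their labels. The authors deposited 1 table of FPKM per gene symbol and library, with 2 decimals. Their processing notes name HISAT, StringTie, Bowtie2, RSEM and the build hg18, without roles. The authors used DESeq2, which needs counts and was not run here. The methods also describe small RNA purification. Dates stood in place of 11 symbols, which could not be matched to a channel. Low FPKM showed no steps of whole reads, so depth is unknown, no counting interval can be given, and precision rests on 3 libraries a group. Columns left unassigned numbered 0.

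From the deposited FPKM, log2(FPKM + 1) was tested by limma 3.58.1 in R 4.3.3 (lmFit, eBayes with a trend, two-sided) over all 8529 genes, with Benjamini-Hochberg adjustment and a threshold of 0.05. Other steps used Python 3.11.15, pandas 2.3.3, numpy 2.4.6 and matplotlib 3.10.9. The programs were tested on simulated data for this comparison: of 200 of 8529 genes given a log2 change of 1.5, 85.5% were recovered, and 7 of 178 calls were false. The 200 were drawn from genes with a mean log2(FPKM + 1) above 1, and the noise was independent between libraries. Recovery of genes near zero, or of changes as small as those of the channels, was not simulated.

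The genes named with all libraries were the measured members of the mechanical list, the highest gene of each family, every channel with an unadjusted p under 0.05 and the 3 on each side of a mean FPKM of 1. Members of complexes and genes marked as named after seeing values are exceptions, as are members given with a mean or range. The values of 1 gene are not reported here, and it is left out of the plots but kept in the counts. The members and gene lists were chosen with earlier results of these data known. Positions come from GENCODE v29 on GRCh38 and promoters from RefSeq, which matched 42 of 55 channels. Both differ from hg18, and the table holds no coordinates. Alternatives were other pseudocounts, level limits, scalings, blocks and each library left out.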

Additional observations from a re-analysis of the deposited data

How the results depend on the processing

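No channel gene had an adjusted p under 0.05 in limma under any alternative run (Benjamini-Hochberg, smallest 0.193, for CLCN7 with the side of the first principal component as a block). Of 468 comparisons of 32 named genes with an alternative, 426 kept the direction and 42 changed it, and 18 genes kept it in all. With eBayes without a trend, the replicate block or the fit restricted to 1 FPKM or more, the fold changes equal those of the main fit. Those comparisons could not change direction, and they are counted in the 426. KCNJ5, ORAI3, CLCN7, CACNB3 and CACNA1S were among the 18 genes that kept it in all. They were picked by p-values from the same libraries, so their steady direction is no separate support. The groups of ORAI3, CLCN7, CACNB3 and CACNA1S did not overlap, so leaving out a library could not change their direction. After rescaling to equal library sums the log2 fold change was −0.039 for CLCN4, −0.065 for KCNA6, −0.086 for KCNIP3, −0.0014 for KCNN4 and −0.0098 for STIM1. After median centring it was −0.023 for CLCN4, −0.039 for KCNA6 and −0.051 for KCNIP3, and after quantile normalisation −0.015 for CLCN4, −0.026 for KCNA6 and −0.038 for KCNIP3. With the side of the first principal component as a block, chosen after seeing the data, it was −0.24 for ANO1, −0.030 for CLCN4, −0.079 for KCNA6, −0.011 for KCNIP3, −0.062 for KCNJ14 and −0.0017 for STIM1. The cause of these changes was not tested. Channels without overlap numbered 3 in the fit restricted to a level of 1 FPKM or more, since fewer genes were then counted, and 14 channels had a mean FPKM of at least 2.

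Deviations from the group means correlated at 0.115, −0.267 and −0.125 between same-numbered libraries, for replicates 1, 2 and 3. Between libraries of unlike number they correlated at −0.238 to 0.294. With 3 libraries centred on each group mean, these values cannot tell whether the samples were paired. With the replicate number as a block, 3 channels had an unadjusted p under 0.05 (CACNA1S, KCNJ5 and ORAI3), all 3 lower on 25 kPa. In that fit 713 of all 8529 genes were under the threshold.

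Leaving out 1 library at a time, channels at an unadjusted p under 0.05 numbered 1 to 5, with 0 to 1 higher and 1 to 4 lower on 25 kPa. In the same fits 622 to 998 of all 8529 genes were under that threshold. Channels without overlap numbered 7 to 16, as fewer libraries overlap less easily. The share of all genes without overlap in these fits is not given here, so that range has no background. The single higher channel was P2RX4 without 25 kPa replicate 2 and KCNS3 without 2 kPa replicate 2. The log2 fold change ranged from −0.086 to 0.57 for ANO1, from −0.047 to 0.13 for CLCN4, from −0.13 to 0.21 for KCNA6, from −0.17 to 0.36 for KCNAB2, from −0.061 to 0.090 for KCNIP3, from −0.046 to 0.41 for KCNJ14, from −0.12 to 0.027 for KCNK1, from −0.15 to 0.098 for KCNK13, from −0.22 to 0.016 for LRRC8D, from −0.15 to 0.15 for ORAI1, from −0.54 to 0.16 for PIEZO1, from −0.71 to 0.039 for SCNN1A and from −0.025 to 0.32 for STIM1. Depth is unknown, so values of a few hundredths of an FPKM cannot be weighed.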
